A study of Sorghum bicolor with 14 samples.

Results

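Sucrose phosphate synthase (SPS) joins a glucose unit from UDP-glucose to fructose phosphate, and a phosphatase then removes the phosphate to leave sucrose. Plants carry several SPS genes, and the enzyme is known to be switched by hexose phosphates, inorganic phosphate and protein phosphorylation as well as by transcript level. In leaves it makes sucrose for export. In the stems of sugar-storing grasses, sucrose that has been split after unloading from the phloem can be made again by SPS before it is stored.

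The family was read as the 5 sorghum loci Sobic.003G403300, Sobic.004G068400, Sobic.005G089600, Sobic.009G233200 and Sobic.010G205100, chosen by identifier from 32042 loci that are named in both deposited tables. The tables carry gene identifiers and no product names, so the assignment to SPS rests on the list of members and was not checked against an annotation. Each of the 5 stands as a locus of its own in both tables, with the same coordinates in each, and none is joined with another gene or overlaps another locus. The genome build and the counting base of the coordinates are not given in the sources used here. Sobic.003G403300 lies on chromosome 3 from 71114879 to 71120454, Sobic.004G068400 on chromosome 4 from 5572015 to 5578763, and Sobic.005G089600 on chromosome 5 from 12853198 to 12859672. Sobic.009G233200 lies on chromosome 9 from 57279797 to 57292686 and Sobic.010G205100 on chromosome 10 from 54737938 to 54750024. These last loci span 12890 and 12087 bases, against 5576 to 6749 for the other three.

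The sampled tissue was the middle internode of the stem of ICSV12012, a sweet variety of Sorghum bicolor, with 14 RNA libraries in 7 groups. Plants of the 4 stage groups grew in a watered, nitrogen-fertilized soil bed, with sampling at floral initiation, at booting (the head still in the flag leaf sheath), at the milky stage and at soft dough (both during grain filling). Plants of the 3 drought groups stood singly in pots, lost their water supply from the flag leaf stage and were taken at booting, at a soil moisture near 13% (D1), 7% (D2) or 2% (D3). No watered pot group is among the samples, and whether a library holds 1 plant or several is not stated in the labels.

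Values are the authors' FPKM, which scale fragments to transcript length and library size, so levels can be set side by side between loci. Between the SPS loci this has a limit, since fragments common to similar SPS genes may have been split among them. The ranks and shares within the family below carry that limit. Each group has 1 deposited value per locus for its 2 libraries. No spread between libraries is known, the sequencing depth is unknown, and no difference or order below was tested: neighbouring levels cannot be said to differ beyond replicate error. Differences are given as differences of log2(FPKM + 1), where 1 corresponds to 2-fold and is the threshold for counting. The added 1 makes differences of low loci smaller than the ratio of their FPKM. In such bulk tissue, fewer cells of a type and less RNA per cell cannot be told apart. The labelled tissue was not checked against marker genes, since the identifiers carry no product names.

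Sobic.009G233200 was the most abundant SPS locus in 6 of the 7 groups. It stood at 29.9 FPKM at floral initiation, 19.0 at booting, 38.1 at the milky stage and 32.1 at soft dough. In the drying pots it stood at 69.4 FPKM in D1, 74.4 in D2 and 94.3 in D3. All 3 drought values therefore lay above all 4 stage values, and booting was the lowest of the 7. It lay above 81.7% of named loci at booting and above 94.9% in D3.

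Sobic.004G068400 was the second most abundant in 5 groups and the most abundant at soft dough. Its level was 17.9 FPKM at floral initiation, 16.4 at booting, 31.3 at the milky stage and 46.1 at soft dough. In D1, D2 and D3 it was 29.7, 28.0 and 29.3 FPKM. The stage values covered a 2.80-fold range with soft dough at the top, and the drought values, which covered 1.06-fold, sat inside that range.

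Sobic.003G403300 had its stage values in the order of development. It stood at 4.61 FPKM at floral initiation, 6.53 at booting, 11.3 at the milky stage and 15.9 at soft dough. In the pots it was at 20.97 FPKM in D1, 29.3 in D2 and 22.2 in D3, so that every drought value was above every stage value. In D2 it passed Sobic.004G068400 and ranked second in the family. Its position among named loci ran from above 62.0% of them at floral initiation to above 86.2% in D2.

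Sobic.010G205100 varied least. It was at 10.4 FPKM at floral initiation, 6.03 at booting, 8.79 at the milky stage and 9.002 at soft dough, and at 6.63, 6.71 and 6.81 FPKM in D1, D2 and D3. Its 3 drought values lay within 1.03-fold of each other, between booting and the milky stage. Over all 7 groups its log2 range was 0.70, and 7.18% of loci had a smaller range.

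Sobic.005G089600 was the least abundant member in each of the 7 groups. Its level was 0.492 FPKM at floral initiation, 0.830 at booting, 0.293 at the milky stage and 1.802 at soft dough. In D1, D2 and D3 it was 5.92, 3.31 and 5.63 FPKM. It thus passed 1 FPKM only at soft dough among the stages, while all 3 drought values were above that. The highest of its 7 values was 20.2 times the lowest, the widest ratio in the family, but the low end is a fraction of 1 FPKM and its error is unknown.

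**Figure D1:**
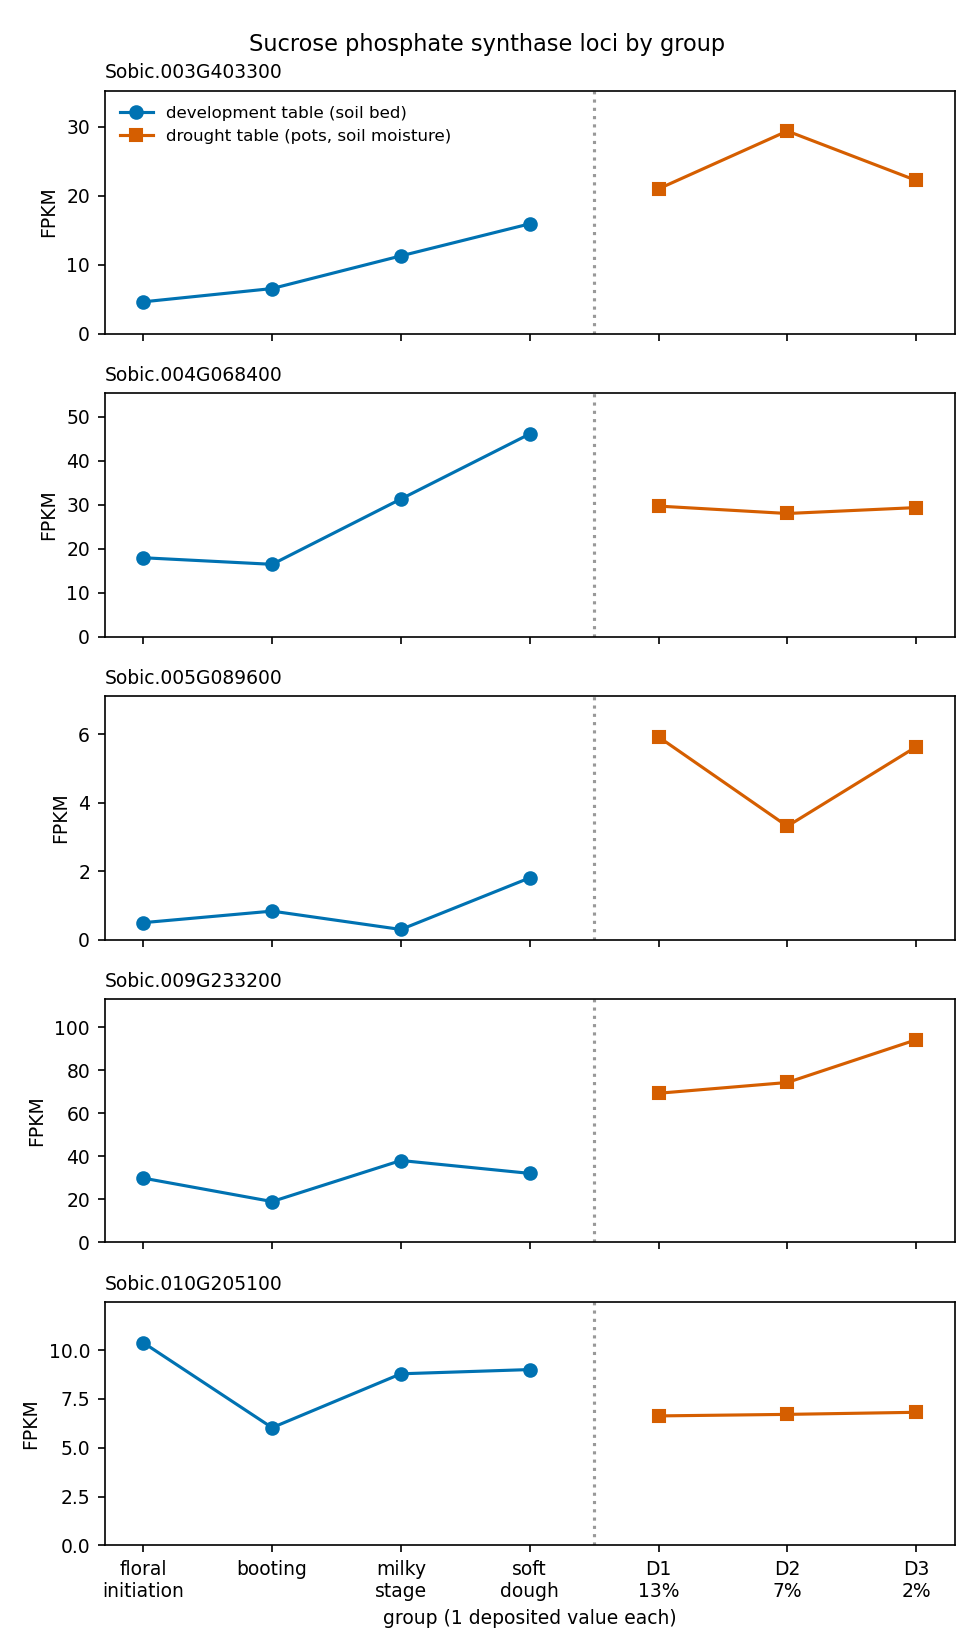
FPKM (vertical axis, linear from 0, with a separate scale per panel) of the 5 SPS loci in the 4 stage groups (circles) and the 3 drought groups (squares, with soil moisture in percent). Each point is the 1 deposited value of a group, so there are no error bars, and the dotted line parts the separately quantified tables. In Sobic.003G403300, Sobic.005G089600 and Sobic.009G233200 all squares lie above all circles.

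The 5 levels added up to 63.3 FPKM at floral initiation, 48.8 at booting, 89.7 at the milky stage and 104.9 at soft dough. In D1, D2 and D3 the sum was 132.6, 141.8 and 158.3 FPKM. Booting had the lowest sum, and all 3 drought sums were above all 4 stage sums. The FPKM of all loci also add up to different totals, with 914773 at booting as the highest of the 7 columns and 664672 at floral initiation as the lowest. The stage totals include 2003 loci without a gene name, and the drought totals count 21 repeated entries again. Stage and drought totals thus do not cover the same loci, and the effect of this on the totals was not tested. Per 1000000 FPKM of these totals the family made up 95.3 at floral initiation, 53.4 at booting, 120.4 at the milky stage, 141.0 at soft dough, 177.5 in D1, 196.4 in D2 and 193.7 in D3. Booting was the lowest on this scale as well, while D2 and D3 changed places.

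The make-up of the family differed between groups in a way that a common scaling factor of a column cannot alter. Sobic.009G233200 gave 47.2% of the sum at floral initiation, 38.9% at booting, 42.5% at the milky stage and 30.6% at soft dough, but 52.3%, 52.5% and 59.6% in D1, D2 and D3. Sobic.004G068400 gave 28.3%, 33.7%, 34.9% and 43.9% over the stages, a larger share at each step, and 22.4%, 19.7% and 18.5% in the pots. At soft dough Sobic.004G068400 stood 1.43 times above Sobic.009G233200. In D3 Sobic.009G233200 stood 3.21 times above Sobic.004G068400.

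The smaller contributors also shifted. Sobic.003G403300 made up 7.28% of the sum at floral initiation and between 12.6% and 20.7% in the other groups. Sobic.010G205100 had its highest share, 16.4%, at floral initiation and its lowest, 4.31%, in D3. Quantile normalization, which is not a common factor of a column, put its share at 4.47% in D2 and 4.66% in D3. Sobic.005G089600 gave at most 1.72% in the stages and between 2.34% and 4.47% in the drought groups.

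**Figure D2:**
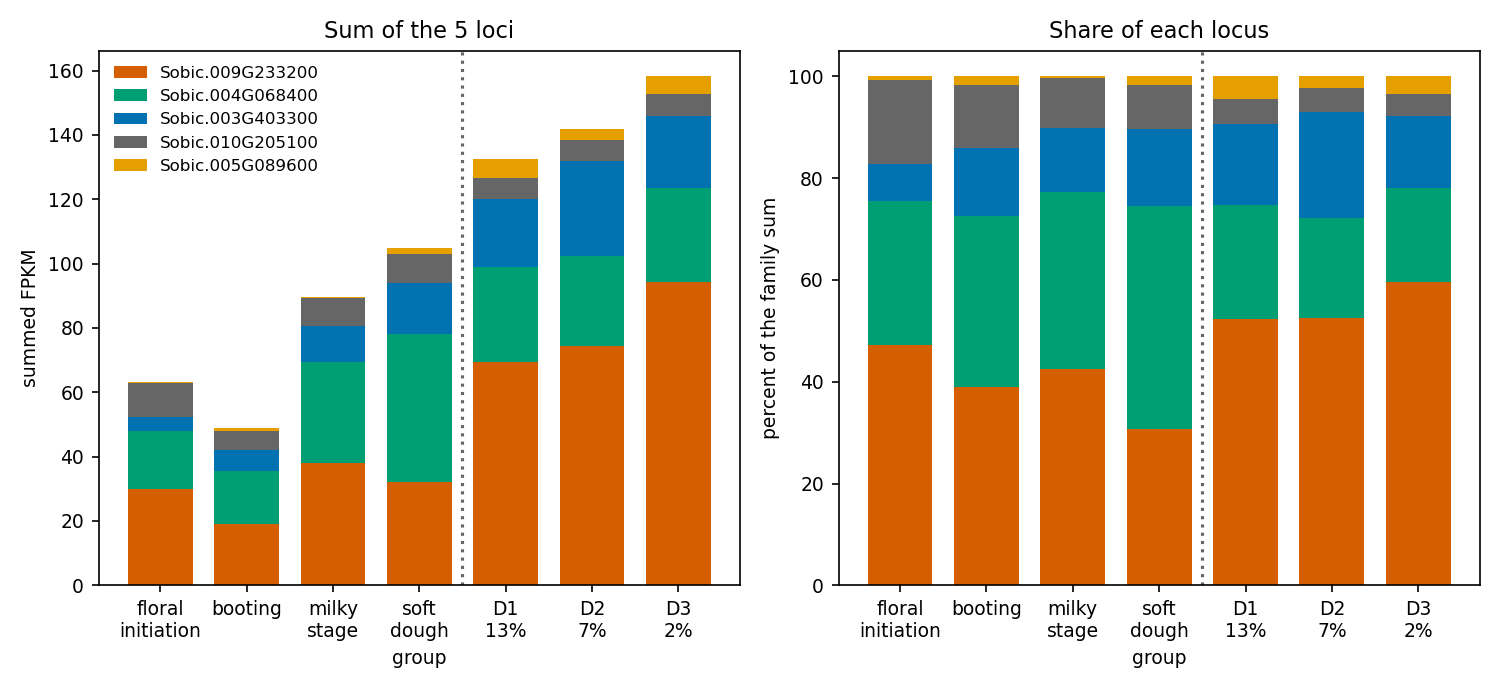
Stacked bars of the 5 SPS loci in the 7 groups, as summed FPKM (left, from 0) and as percent of the family sum (right); each colour is a locus and each bar rests on 1 deposited value per locus. The sum is lowest at booting (48.8 FPKM) and highest in D3 (158.3 FPKM), and the share of Sobic.009G233200 runs from 30.6% at soft dough to 59.6% in D3.

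Booting against floral initiation addresses how the stem differs once the head has formed. Here 3 SPS loci were lower at booting and 2 were higher, with 50.5% of all loci higher, and none reached 2-fold, where 29.3% of all 18367 loci compared did. Sobic.010G205100 was 1.72 times lower at booting (log2 difference -0.70) and Sobic.009G233200 1.57 times lower (-0.63). Sobic.003G403300 was 1.42 times higher (0.42), Sobic.005G089600 differed by 0.29, and Sobic.004G068400 by -0.12. When columns were rescaled to the same total, a setting chosen after the data were seen, Sobic.009G233200 and Sobic.010G205100 passed 2-fold (-1.07 and -1.10) and the median of all loci moved to -0.37.

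From booting to the milky stage, when grain filling begins, 4 of the 5 were higher, beside 48.3% of all loci. The largest log2 difference was that of Sobic.009G233200 (0.97), which stopped just short of the threshold although its FPKM ratio was 2.00. Sobic.004G068400 was 1.90 times higher at the milky stage (0.89), Sobic.003G403300 1.72 times (0.70) and Sobic.010G205100 1.46 times (0.48). The scarce Sobic.005G089600 was lower (-0.50). None passed 2-fold, against 24.9% of all loci, and the median log2 difference of the members was 0.70 beside -0.03 for all loci. On columns of the same total Sobic.009G233200 and Sobic.004G068400 passed the threshold (1.25 and 1.17), and with an offset of 0.1 in place of 1 so did Sobic.005G089600 on the lower side (-1.24). Median-of-ratios scaling took Sobic.009G233200 past it (1.03).

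Between the milky stage and soft dough both abundant loci parted. Sobic.004G068400 was 1.47 times higher at soft dough (0.54) and Sobic.009G233200 was 1.19 times lower (-0.24). Sobic.003G403300 was 1.41 times higher (0.46), and Sobic.010G205100 stayed nearly level (0.03, or -0.03 with quantile normalization and -0.0045 with median-of-ratios scaling). Only Sobic.005G089600 passed 2-fold (1.12), where 17.4% of all loci did. Its levels were 0.293 and 1.802 FPKM, and with an offset of 5 the difference was 0.36.

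Over the whole sampled span, 2 of the 5 loci were at least 2-fold higher at soft dough than at floral initiation, where 30.5% of all loci differed that much in either direction and 13.7% on the higher side. These were Sobic.003G403300, 3.45 times higher (1.59), and Sobic.004G068400, 2.57 times higher (1.31). Sobic.005G089600 fell short on the log2 scale used (0.91), though it reached 1.68 with an offset of 0.1 and 1.08 with quantile normalization. Sobic.009G233200 (0.10) and Sobic.010G205100 (-0.19) ended near their starting levels, and the sign for the former turned with quantile normalization (-0.003) and on columns of the same total (-0.06). Of the 5, only Sobic.003G403300 was higher at each of the 3 steps, a course that 5.08% of all loci followed. Booting was the lowest stage for Sobic.004G068400, Sobic.009G233200 and Sobic.010G205100, as it was for 21.9% of all loci, and soft dough the highest for the other two and Sobic.004G068400, as for 21.3% of all loci.

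The drying series asks how the stem differs as soil moisture drops from 13% to 2%. None of the 5 loci differed at least 2-fold at either drying step or between its ends, where 6.80% (D2 against D1), 9.77% (D3 against D2) and 11.3% (D3 against D1) of 17229 loci did. Sobic.009G233200 was higher at both steps, with log2 differences of 0.10 and 0.34, and in total 1.36 times higher in D3 than in D1 (0.44). Sobic.010G205100 was also higher at both, by 0.01 and 0.02, a course that 22.5% of all loci followed. Both of its signs depended on the scaling, with -0.02 for the first step under quantile normalization and -0.14 for the second on columns of the same total.

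Sobic.003G403300 and Sobic.005G089600 turned at 7% soil moisture. Sobic.003G403300 was 1.40 times higher in D2 than in D1 (0.47) and then 1.32 times lower in D3 (-0.39), so that its ends differed by 0.08, or by -0.01 with quantile normalization and -0.05 on columns of the same total. Sobic.005G089600 took the opposite course, 1.79 times lower in D2 (-0.68) and then 1.70 times higher in D3 (0.62), with ends that differed by -0.06. Sobic.004G068400 differed little, by -0.08 and 0.07, and the second sign turned under quantile normalization (-0.05) and on columns of the same total (-0.11). D2 was the highest drought group for 28.7% of all loci and the lowest for 31.6%.

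The watered plants nearest in stage to the potted ones are those sampled from the soil bed at booting. Pot culture and water supply cannot be told apart in this comparison, and the tables were quantified separately. All 5 SPS loci were higher in each drought group than at booting, as were 51.3% of all loci in D1, 51.7% in D2 and 52.2% in D3, and the same 3 were at least 2-fold higher in all of them. For D1, D2 and D3 respectively, 12.8%, 13.4% and 15.5% of 18492 loci were at least 2-fold higher than at booting, and 7.64% were so in all 3. In either direction 26.1%, 26.1% and 29.8% of loci differed at least 2-fold.

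Sobic.009G233200 was 3.65 times its booting level in D1 (1.81), 3.91 times in D2 (1.91) and 4.96 times in D3 (2.25). Sobic.003G403300 was 3.21, 4.49 and 3.40 times its booting level (1.54, 2.01 and 1.62). Sobic.005G089600 was 7.14, 3.99 and 6.79 times its booting level (1.92, 1.24 and 1.86), and with an offset of 5 it fell short of 2-fold in each (0.91, 0.51 and 0.87).

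The other two loci lay nearer to booting. Sobic.004G068400 was 1.81, 1.70 and 1.78 times its booting level (0.82, 0.73 and 0.80), and on columns of the same total it passed 2-fold in D1 and D2 (1.09 and 1.06). Sobic.010G205100 was 1.10, 1.11 and 1.13 times its booting level (0.12, 0.13 and 0.15). Its log2 differences were 0.02, 0.005 and 0.06 with quantile normalization, and 0.37, 0.43 and 0.29 on columns of the same total. The median log2 difference of the members was 1.54, 1.24 and 1.62, beside 0.03, 0.03 and 0.05 for all loci. The 3 comparisons share the booting value, so they are not independent of each other, and booting was the lowest of the 7 groups for 3 of the 5 loci and for 13.7% of all loci.

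The drought values also stood against the other stages. For Sobic.003G403300, Sobic.005G089600 and Sobic.009G233200 the lowest drought value was above the highest stage value, under both scalings tried and on columns of the same total. Of all loci 17.5% had that order and 11.6% the reverse. Sobic.004G068400 was higher at soft dough (46.1 FPKM) than in any drought group, and Sobic.010G205100 was higher at floral initiation, the milky stage and soft dough than in any drought group.

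**Figure D3:**
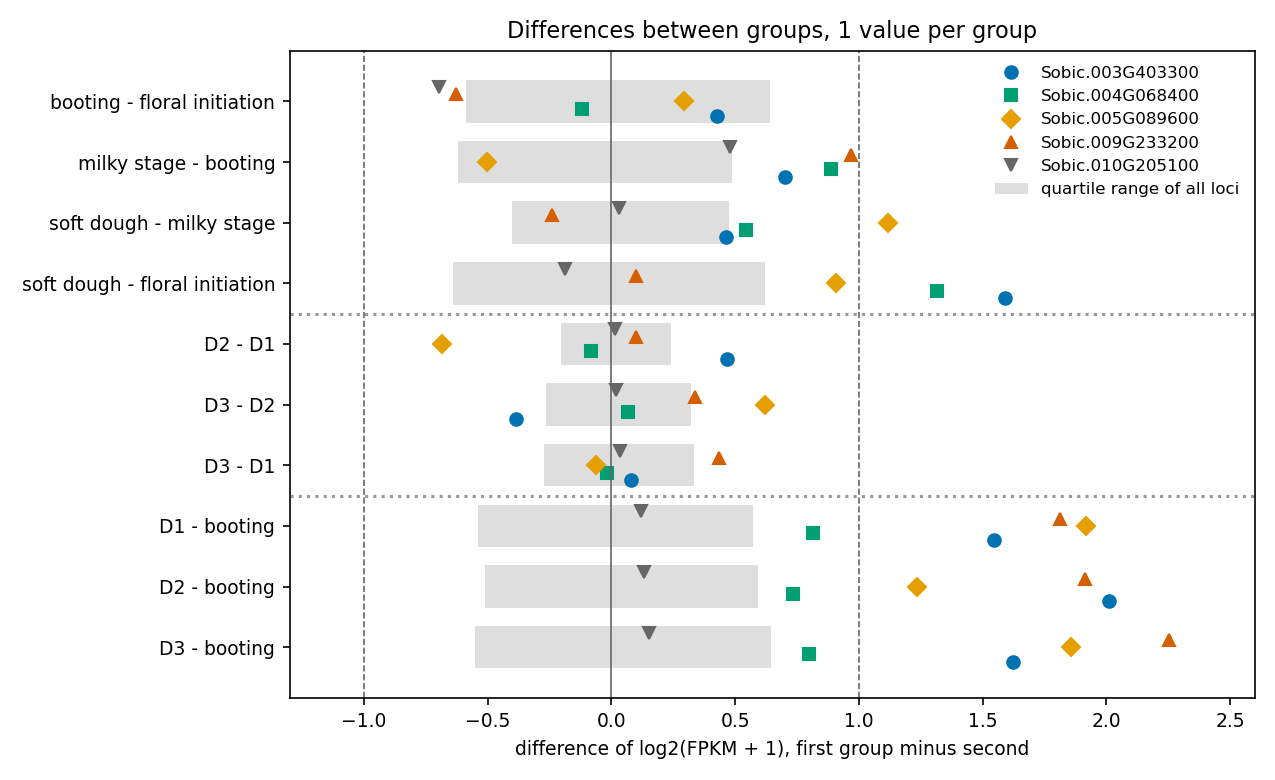
Differences of log2(FPKM + 1) for the 5 SPS loci (symbols) in 10 comparisons, first group minus second; grey bars run from the lower to the upper quartile of all loci compared and dashed lines mark 2-fold. No point has an error, since each group has 1 value. The drying comparisons lie between -0.68 and 0.62, and against booting Sobic.003G403300, Sobic.005G089600 and Sobic.009G233200 lie beyond the 2-fold line in D1, D2 and D3.

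Loci with a course like that of each member were sought by Pearson's r of log2(FPKM + 1) over the 7 groups. The search covered loci of a single gene that reached 5 FPKM in some group and differed at least 2-fold between some pair, which leaves out Sobic.010G205100 as a match for the others. The 7 points come from separately quantified tables, and r is given as a description. For Sobic.009G233200, 135 of 10940 loci had an r of at least 0.95, and the closest were Sobic.004G123400 (0.996), Sobic.001G404900 (0.993) and Sobic.006G184900 (0.993). Sobic.004G123400 ran from 8.81 FPKM at booting to 47.6 in D3.

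For Sobic.004G068400 only 15 loci reached 0.95, led by Sobic.001G445100 (0.993), which was at 17.3 FPKM at booting and 45.5 at soft dough, close to the levels of the SPS locus itself. Next were Sobic.001G043100 (0.987) and Sobic.003G390400 (0.984). For Sobic.003G403300, 61 loci did, led by Sobic.004G101500 (0.989), Sobic.002G427800 (0.988) and Sobic.006G279200 (0.984). For Sobic.005G089600, 102 did, led by Sobic.003G229000 (0.996), Sobic.008G188900 (0.995) and Sobic.010G122000 (0.994).

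For Sobic.010G205100, 31 loci reached 0.95, led by Sobic.007G221100 (0.995), Sobic.003G072900 (0.995) and Sobic.009G016800 (0.984). The match is in shape and not in size. Sobic.007G221100 ran from 0.679 FPKM at booting to 5.15 at floral initiation, a wider ratio than the 1.72 of the SPS locus.

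The loci next to the SPS loci were read as well, because the sources used here do not state whether the counting used strand. The nearest locus before Sobic.003G403300 is listed at 0 in all 7 groups. Sobic.003G403400, which starts 2067 bases after Sobic.003G403300, was at 27.2, 21.6, 33.4 and 26.0 FPKM over the stages, without the stepwise order of its neighbour. In D1, D2 and D3 it was at 66.0, 60.5 and 79.9 FPKM, so that every drought value lay above every stage value, as in the SPS locus. The nearest locus before Sobic.004G068400, 219 bases away, is listed at 0 in 6 groups and at 0.00956 FPKM at floral initiation. Sobic.004G068500, which starts 3010 bases after that SPS locus, was at 30.6, 66.4, 42.3 and 63.9 FPKM over the stages and at 77.7, 68.0 and 73.5 in D1, D2 and D3. Every drought value of this neighbour lay above every stage value, unlike in the SPS locus, which was highest at soft dough. Both neighbours of Sobic.005G089600 are listed at 0 in all 7 groups. Sobic.009G233300, which starts 6647 bases after Sobic.009G233200, was at 172.6, 308.6, 127.2 and 242.5 FPKM over the stages, highest at booting, where the SPS locus had its lowest. In D1, D2 and D3 it was at 381.0, 290.8 and 374.6 FPKM, so that D1 and D3 lay above every stage value but D2 lay below booting. In the SPS locus every drought value lay above every stage value. The nearest locus before Sobic.009G233200 is listed at 0.0688 FPKM at floral initiation and at 0 elsewhere. Sobic.010G205000, which ends 1505 bases before Sobic.010G205100, was at 1.84, 0.902, 0.242 and 0.290 FPKM over the stages. Its drought values were 1.24, 1.12 and 0.929 FPKM. Sobic.010G205200, which starts 53469 bases after that SPS locus, was at 112.2, 176.4, 275.4 and 377.4 FPKM over the stages. In the pots it stood at 329.9, 372.3 and 495.9 FPKM.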

How the data were processed

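Total RNA libraries were made with a stranded kit, per the labels' protocols. The authors deposited FPKM, 1 value per locus and group, in a development table of 34755 loci (2003 without a gene name, left out) and a drought table of 32726 entries (21 identical repeats, used once). The column totals, also those used for rescaling, are an exception. They include the 2003 loci without a name and count the 21 repeats again. HISAT2 2.0.5, Bowtie2 2.2.9, cutadapt 1.8.1 and Cuffdiff were used, per the submitters' processing notes. The build, the annotation, the use of strand and the way each pair of libraries became 1 value are not given in the sources used here. Fragments common to similar SPS genes may have been split among them. Groups came from the stage or condition label, and 0 value columns belong to other samples.

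Differences of log2(FPKM + 1) were computed in Python 3.11.15 with pandas 2.3.3, over named loci that reached 1 FPKM in some group of the table, or, across tables, in any of the 7 groups. No test was possible with 1 value per group. The counting step was tested on simulated data, which were booting values multiplied by set factors without added error. That covers the arithmetic of the count, and not low values or error between libraries. All 5 members were named, and per member the 3 loci of highest r. Lists of other sucrose pathway genes and of tissue markers, to be formed by product name, stayed empty, because the reference table of the assembly NCBIv3 matched 0 of the identifiers, and are not analysed here. The members and rules were chosen with earlier results of these data known. Alternatives were offsets of 0.1 and 5, other minimums, median-of-ratios scaling, quantile normalization and loci of a single gene. Chosen after the data were seen were no offset, a 1.5-fold threshold and columns rescaled to the same total.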

Additional observations from a re-analysis of the deposited data

How the results depend on the processing

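No paired analysis was possible because the files hold 1 value per group and no library values, and for the same reason no library could be left out. The count of SPS loci past 2-fold kept within 1.5 times its reported value, or was equal to it, except as follows. For booting against floral initiation it was 2 in place of 0 with a 1.5-fold threshold and 2 on columns of the same total. For the milky stage against booting it was 1 in place of 0 with an offset of 0.1 and 1 with median-of-ratios scaling, 2 without an offset, 3 with a 1.5-fold threshold and 2 on columns of the same total. For soft dough against the milky stage it was 0 in place of 1 with an offset of 5, and 0 with a minimum of 5 FPKM, which leaves out Sobic.005G089600. For D2 against D1 and for D3 against D2 it was 1 in place of 0 with a 1.5-fold threshold. Of 446 differences of single loci recomputed, 28 turned in sign or crossed the threshold, and none that had passed 2-fold turned in sign. Settings that only choose loci could change none: 50 without a minimum, 46 with a minimum of 5 FPKM and 50 with loci of a single gene. A change of offset cannot turn a sign, so only rescaled columns could. Of the 28, 2 came with median-of-ratios scaling, 6 with quantile normalization and 11 on columns of the same total. The log2 ratio of the family sums went from -0.37 to -0.84 on columns of the same total for booting against floral initiation. For D3 against D1 it went from 0.26 to 0.12 with quantile normalization and 0.13 on columns of the same total, and for D3 against D2 it turned from 0.16 to -0.002 and -0.02. Quantile normalization moved the median of all loci from -0.03 to 0.09 for the milky stage against booting. Rescaling to the same total moved that median by more than 0.1 in most comparisons, to between -0.37 and 0.29. Where the cause of a move is not stated, the cause was not tested. Depth is unknown, and values under 1 FPKM, as for Sobic.005G089600 in 3 stages, carry the least information.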
